A study of Homo sapiens with 18 samples.

Results

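MAX sites were compared between cells carrying the MYC mutants named 3A and 7A in the labels. The material is 2 deposited peak lists, 27294 MAX peaks for 3A and 25159 for 7A, or 52453 of the 87075 peaks of the series. Both lists were taken whole. A peak was called partnered where it shared at least 1 bp with a peak of the other list, and specific where it shared none. Ranks come from the fold enrichment of the peak caller within each list. Because the 3A list is longer, the counts of partners, pairs and genes were repeated with both lists at 25159 peaks, which removed the 3A peaks with the lowest −log10 q.

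The cells are U2OS, a human osteosarcoma line, with their own MYC knocked out and a doxycycline-inducible (Tet-On) copy of mutant MYC put in its place. Each mutant was grown with 1 µg/ml doxycycline (Dox) for 24 h or without Dox (PBS, 24 h), and 10% of mouse NIH3T3 cells were added as an outside reference genome (ChIP-Rx). The labels give 2 biological replicates of the MAX immunoprecipitation and 1 input per mutant and Dox condition, hence 8 immunoprecipitation and 4 input libraries for 3A and 7A. The labels do not say which residues 3A and 7A alter, or whether each line is 1 clone. Induced and uninduced cells share 1 list per mutant. A peak may therefore come from cells with or without mutant MYC, no replicate stands behind any value, and no difference below has a test between samples. Library depth is not given in the lists, and the intervals printed cover counting error only. MAX sites do not measure expression, so they are no check of the cell line. Gene-end peaks stood in both lists at 2 of 10 bone lineage markers, SP7 and SPARC, and at 5 of 14 markers of other tissues. Over all protein-coding genes the share was 53.6%.

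MAX is a small basic helix-loop-helix leucine zipper protein that binds DNA as a dimer. With MYC, MYCN or MYCL it forms dimers linked to activation, and with the MXD proteins, MNT or MGA it forms dimers linked to repression. The dimers bind the E-box CACGTG and near variants such as CACGCG, and in proliferating cells they sit at the promoters of many genes of ribosome production, translation and metabolism. A MAX peak thus shows a site of the whole network and does not tell which partner is bound.

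Sequences at the summits show the kinds of site compared. Each is the part of a RefSeq promoter window (GRCh38.p14, 250 bases before to 50 after a gene start) that lies within 75 bases of a summit, read 5′ to 3′ on the gene's strand. Capitals mark CACGTG or CACGCG on either strand. The windows shown first held the strongest peaks ranked high in both lists. They are those of ZFYVE27 at chr10:97736878-97737016 (plus strand), UTP11 at chr1:38012484-38012569 (plus strand) and DHDDS at chr1:26432071-26432187 (plus strand), and each held at least 1 of these motifs.
ZFYVE27: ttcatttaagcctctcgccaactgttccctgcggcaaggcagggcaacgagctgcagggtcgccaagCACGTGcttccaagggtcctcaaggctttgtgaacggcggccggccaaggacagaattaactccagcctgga
UTP11: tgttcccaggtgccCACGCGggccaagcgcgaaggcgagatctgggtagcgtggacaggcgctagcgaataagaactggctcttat
DHDDS: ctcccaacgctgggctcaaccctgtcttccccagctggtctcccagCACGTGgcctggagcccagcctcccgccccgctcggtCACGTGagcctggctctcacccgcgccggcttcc
Specific gene-end peaks gave the next set, 3A-specific at PPP4C, chr16:30075847-30075997 (plus strand), and ZNF700, chr19:11925040-11925156 (plus strand), and 7A-specific at TDRD9, chr14:103928267-103928417 (plus strand), and PIP5K1C, chr19:3700460-3700610 (minus strand). Only the TDRD9 stretch among these held a marked motif.
PPP4C: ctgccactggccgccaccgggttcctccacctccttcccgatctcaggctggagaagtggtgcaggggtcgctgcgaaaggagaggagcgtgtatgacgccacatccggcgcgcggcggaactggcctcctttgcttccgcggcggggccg
ZNF700: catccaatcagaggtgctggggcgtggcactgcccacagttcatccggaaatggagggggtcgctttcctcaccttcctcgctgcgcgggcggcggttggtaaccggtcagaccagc
TDRD9: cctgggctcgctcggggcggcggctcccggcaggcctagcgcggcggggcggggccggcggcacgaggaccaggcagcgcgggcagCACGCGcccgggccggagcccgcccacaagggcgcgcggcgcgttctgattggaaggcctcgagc
PIP5K1C: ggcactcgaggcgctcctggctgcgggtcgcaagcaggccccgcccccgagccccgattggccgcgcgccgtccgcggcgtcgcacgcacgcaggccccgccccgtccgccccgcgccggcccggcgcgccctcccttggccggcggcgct
Sites with peaks in both lists that changed rank most gave the last set. LGALS3BP at chr17:78979874-78980001 (minus strand) and NEK4 at chr3:52770895-52771045 (minus strand) ranked higher in 3A, and RIMKLA at chr1:42380746-42380841 (plus strand) and TBC1D14 at chr4:6909771-6909875 (plus strand) ranked higher in 7A. In TBC1D14 the capitals show CACGCG as it reads on the other strand.
LGALS3BP: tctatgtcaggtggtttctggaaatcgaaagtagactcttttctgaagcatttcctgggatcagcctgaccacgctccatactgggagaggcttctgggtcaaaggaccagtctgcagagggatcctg
NEK4: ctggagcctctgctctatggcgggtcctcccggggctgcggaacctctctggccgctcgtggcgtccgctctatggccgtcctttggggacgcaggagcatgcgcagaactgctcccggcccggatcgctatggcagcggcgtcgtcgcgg
RIMKLA: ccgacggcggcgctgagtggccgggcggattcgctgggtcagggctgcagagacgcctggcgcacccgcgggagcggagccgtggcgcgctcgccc
TBC1D14: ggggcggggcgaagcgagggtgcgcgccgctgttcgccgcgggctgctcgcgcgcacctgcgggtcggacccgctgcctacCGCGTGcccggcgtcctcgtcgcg
The absence of capitals says only that these letters are not in the stretch shown.

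The first comparison asked how far the mutants shared their MAX sites. Most sites were shared, and the specific ones were mainly weak. Of the 3A peaks, 12.2% had no 7A partner (3319 of 27294), and of the 7A peaks 5.72% had no 3A partner (1440 of 25159). With lists of equal length the imbalance was small and pointed the other way: 90.2% of the 3A peaks (95% exact Clopper-Pearson interval 89.8 to 90.6) and 89.4% of the 7A peaks (89.0 to 89.8) had a partner. The number of specific peaks was then 2469 in 3A and 2668 in 7A. All 2469 were specific in the full lists too, which was certain in advance because the 7A list was not shortened. Of the 2668, 1440 were, and the other 1228 had lost their 3A partner to the shortening.

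Stronger peaks more often had a partner. In the full lists 69.8% (68.1 to 71.5) of the weakest 10% of 3A peaks were partnered and 99.8% (99.5 to 99.9) of the strongest 10%. For 7A these shares were 85.0% (83.6 to 86.4) and 99.9% (99.7 to 99.98). At equal length the weakest 10% gave 78.0% in 3A and 65.5% in 7A, so their order reversed, while the strongest gave 99.8% and 99.9%. Of the strongest 1000 peaks, 998 in 3A and 999 in 7A had a partner anywhere in the other list, and 592 of them had it among the strongest 1000 there.

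**Figure D1:**
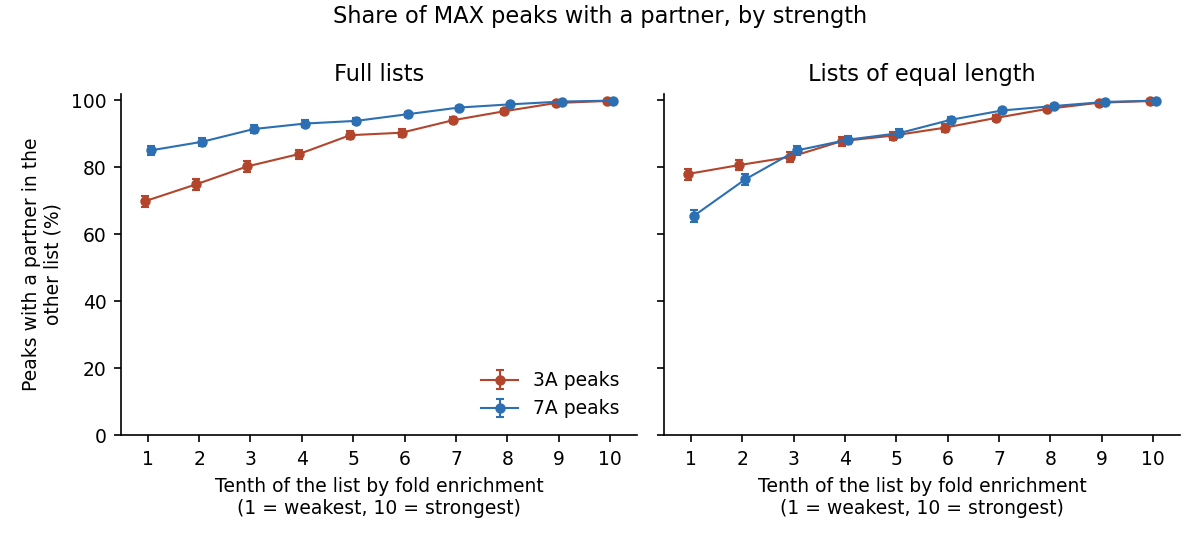
Share of 3A and 7A MAX peaks with a partner in the other list (percent, vertical axis) in steps of 10% of the list from weakest to strongest fold enrichment (horizontal axis), for full lists and lists of equal length. Bars are 95% exact binomial intervals, and both lists reach 99.8% or more in the strongest 10%.

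Specific peaks were weaker and narrower than partnered ones. In 3A they had a median enrichment of 7.39 fold over a median of 328 bp, and partnered peaks 11.8 fold over 631 bp. In 7A the medians were 7.25 fold and 354.5 bp for specific peaks, and 11.4 fold and 700 bp for partnered ones. Their median percentile, the share of the list at or below a peak's fold enrichment, was 22.9 in 3A and 21.5 in 7A. Above the median of their list lay 547 of the 3A-specific peaks (16.5%) and 204 of the 7A-specific ones (14.2%).

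Specific peaks were also more often away from genes. A gene end here means a summit within 1000 bp of either outer end of a protein-coding gene, start or finish. Of the 3A-specific peaks 12.5% (11.4 to 13.7) were at gene ends, against 41.1% (40.5 to 41.8) of partnered 3A peaks. Of the 7A-specific peaks the share was 16.04% (14.2 to 18.04), against 41.0% (40.4 to 41.6). Inside genes lay 42.2% of the 3A-specific and 40.1% of the 7A-specific peaks, against 29.6% of the partnered peaks of each list. Outside genes lay 45.3% and 43.8%, against 29.2% and 29.4%. With lists of equal length the gene-end share was 12.1% (10.8 to 13.4) in 3A and 20.1% (18.6 to 21.7) in 7A.

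**Figure D2:**
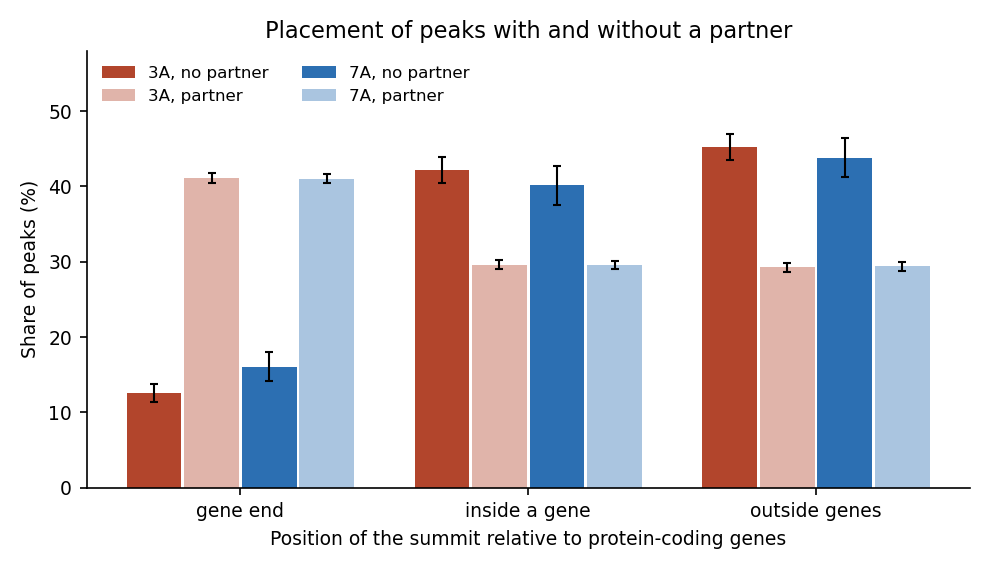
Share of peaks (percent) at gene ends, inside protein-coding genes and outside them, for 3A and 7A peaks with no partner (dark) and with a partner (light), full lists. Bars are 95% exact binomial intervals, and the gene-end bars are 12.5% and 16.04% for specific peaks against 41.1% and 41.0% for partnered ones.

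At like strength, 3A-specific peaks were still less often at gene ends. Between the median and the upper quartile of fold enrichment, 14.2% (11.2 to 17.6) of 3A-specific peaks were at gene ends, against 43.0% (41.8 to 44.2) of partnered ones. In 7A these shares were 24.6% (18.5 to 31.5) and 45.4% (44.2 to 46.7). Above the upper quartile 11 of 60 3A-specific peaks were at gene ends, or 18.3% (9.52 to 30.4), against 56.1% (54.95 to 57.3). There 11 of 21 7A-specific peaks were, or 52.4% (29.8 to 74.3), and the interval holds the 56.0% of partnered peaks.

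Most specific peaks stood alone. Along the chromosomes, 74.6% of the 3A-specific peaks (2476 of 3318) and 86.6% of the 7A-specific ones (1247 of 1440) had partnered peaks as both neighbours in their list. Such shares are high wherever few peaks are specific, here 12.2% and 5.72%, and no departure from an even spread was tested. The longest runs were 5 specific 3A peaks on chromosome 2 (hg38, chr2:107025989-108413527) and on chromosome 7 (chr7:132251310-132516707), and 4 specific 7A peaks on chromosome 5 (chr5:124935919-125612557). The specific share by chromosome ran from 9.08% on chromosome 22 to 14.7% on chromosome 13 in 3A, and from 3.56% on chromosome 16 to 8.18% on chromosome 13 in 7A. The nearest peak of the other list was at a median of 16724 bp from a 3A-specific peak and 15940.5 bp from a 7A-specific one. It lay within 1000 bp for 347 (10.5%) and 184 (12.8%). The WT list, from cells with wild-type MYC, held a partner for 2518 of the 3A-specific peaks (75.9%) and 1029 of the 7A-specific ones (71.5%). The same share over all peaks of each list was not computed, so whether these are high or low cannot be said here.

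The strongest 3A-specific peak at a gene end was that of PRLHR, the receptor for prolactin-releasing peptide, with a fold enrichment of 39.7 (hg38, chr10:118594421-118594790, percentile 96.5). It was 370 bp wide, and the nearest 7A peak lay 103694 bp away. NOC2L, which encodes an inhibitor of histone acetyltransferases, followed at 27.3, and NSG2, a neuronal vesicle gene, at 25.3 with the nearest 7A peak 113755 bp away. STEEP1, an exit factor of the innate immune sensor STING, had 20.1, and TRAF2, an adaptor of tumour necrosis factor receptors, 18.6. A peak at the ends of HRC and PPFIA3 had 18.3, but both genes had other gene-end peaks in both lists. PPP4C, the catalytic subunit of protein phosphatase 4, had 18.2, and ZNF700, a zinc-finger gene, 17.9. These 8 peaks were 216 to 370 bp wide, below the 3A list's median width of 578 bp.

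Among the 7A-specific gene-end peaks 1 stood far above the others. ZCCHC7, whose product takes part in nuclear RNA surveillance, had a fold enrichment of 89.7 (hg38, chr9:37119851-37120512, rank 76 of 25159, percentile 99.7), with its summit 42 bp before the gene's start coordinate. The nearest 3A peak was 39934 bp away. That peak, chr9:37079291-37079916 in 3A, was strong in both lists, with 143.1 in 3A and 111.1 in 7A. The WT list held both, the ZCCHC7 peak at 77.3 and its neighbour at 78.9. The ZCCHC7 gene-end peak was thus present in 7A and WT and not listed in 3A, while its neighbour was in all 3 lists.

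The other strong 7A-specific gene-end peaks had fold enrichments between 17.4 and 21.6. They were at MFHAS1 (21.6), RCC2, a regulator of mitosis (21.3), CDC14B, a dual-specificity phosphatase (21.1), TDRD9, a helicase of the germline piRNA pathway (19.5), KLHL17, an actin-binding Kelch protein (18.98), PIP5K1C, a lipid kinase (18.2), and CSNK2A2, a catalytic subunit of casein kinase 2 (17.4). For CDC14B and RCC2 a 3A peak lay 326 and 968 bp away, so the specific call there rests on position. With gene ends widened to 2500 bp, RCC2, CDC14B, KLHL17 and NOC2L had a gene-end peak in both lists, and ZCCHC7, MFHAS1, TDRD9, PIP5K1C, CSNK2A2, PRLHR, NSG2, STEEP1, TRAF2, PPP4C and ZNF700 still had it in 1 list.

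KLHL17 and NOC2L are neighbours, and their specific peaks were of opposite lists. The 3A peak at NOC2L (chr1:959043-959352) and the 7A peak at KLHL17 (chr1:960493-961428) lay 1140 bp apart. Such neighbouring specific peaks of opposite lists were few: 40 of the 3319 3A-specific peaks (1.21%) had a 7A-specific peak within 2000 bp. This pattern was looked for after the values were seen. It includes a 7A peak at ERCC1, a DNA repair gene, 263 bp from a 3A peak.

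Away from gene ends, the strongest 3A-specific peak of all lay inside MYC itself (hg38, chr8:127740395-127740947), with a fold enrichment of 41.0, a rank of 858 and a percentile of 96.9. Its summit was 5243 bp from the gene's start coordinate, and neither the 7A list nor the WT list held a peak there. At the MYC gene end 3A had a second peak of 10.5, WT had one of 8.48 and 7A had none. Beyond the gene, peaks about 19 and 20.5 kb from its start were in all 3 lists, the first with 6.61 in 3A and 10.97 in 7A, the second with 9.71 and 6.43. These cells carry an inducible MYC copy, and reads from that copy and from the MYC locus cannot be told apart here.

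The next 3A-specific peaks away from gene ends were on chromosome 3 (chr3:125990364-125990564, 36.2) and chromosome 6 (chr6:127027100-127027388, 29.4), both outside protein-coding genes and 92947 and 91934 bp from the nearest 7A peak. The strongest in 7A lay inside ZC3H10, an RNA-binding zinc-finger gene (chr12:56119370-56120025, 32.7). The others were on chromosome 18, outside genes (chr18:58786918-58787332, 26.6) and inside ZBTB7C (chr18:48409028-48409449, 25.0). All 3 had a 3A peak within 1029 bp. These are 3 peaks of each list, and the distances over all specific peaks are those given above.

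The second comparison asked whether shared sites kept their rank. Peaks that were each other's strongest partner gave 23639 pairs, with summits a median of 13 bp apart. Their percentiles had a Spearman rank correlation of 0.736 by fold enrichment and 0.896 by −log10 q, as a description over pairs of the same 2 lists. The median change in percentile was 12.3 points in either direction. A pair was called re-ranked where the percentiles differed by 25 points or more: 12.8% of pairs ranked higher in 3A (3032) and 9.58% higher in 7A (2265). With lists of equal length there were 22411 pairs, of which 2444 (10.9%) ranked higher in 3A and 2773 (12.4%) higher in 7A, so the balance between the mutants reversed.

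Many individual calls were the same in both settings. All 2444 pairs that ranked higher in 3A at equal length were among the 3032, of which they are 80.6%. That was largely built in. Only the 3A list was shortened, by its peaks of lowest −log10 q, while the 7A percentiles stayed fixed. For 7A 2031 were shared, or 89.7% of the 2265 and 73.2% of the 2773. Ranking by −log10 q kept the direction of 99.8% of the pairs higher in 3A and 97.4% of those higher in 7A, but left fewer at 25 points or more: 886 of the 3032 and 545 of the 2265. Re-ranked sites were of middling strength, with medians of 14.2 in 3A and 7.80 in 7A for the first class and of 7.84 and 14.2 for the second. This follows in part from the call itself, since percentiles near either end of the scale leave little room for 25 points. By place, 11.7% of pairs at gene ends ranked higher in 3A and 9.12% higher in 7A, against 13.4% and 9.95% outside genes. Chromosomes ranged from 8.82% (22) to 15.7% (13) for pairs higher in 3A and from 5.18% (22) to 13.3% (X) for those higher in 7A.

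Over genes, 10711 of 19974 protein-coding genes (53.6%) had a gene-end peak in both lists. A gene-end peak in 3A alone was found at 1.89% of genes (377) and in 7A alone at 1.12% (223). With lists of equal length these numbers were 290 and 505, so again the larger share went to the other mutant. With gene ends widened to 2500 bp, 133 of the 377 and 88 of the 223 had a peak in both. Taking each gene's strongest gene-end peak, 11.1% of the 10711 genes ranked 25 points or more higher in 3A (1191) and 8.68% higher in 7A (930). The shift, the 7A percentile minus the 3A percentile, had a median of -1.10 over all genes, or 0.08 with lists of equal length. Just inside the threshold were SLC26A6 (shift -25.01) and VASP (-25.04), and just outside it PDE6A (-24.999) and ZBTB18 (-24.99).

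**Figure D3:**
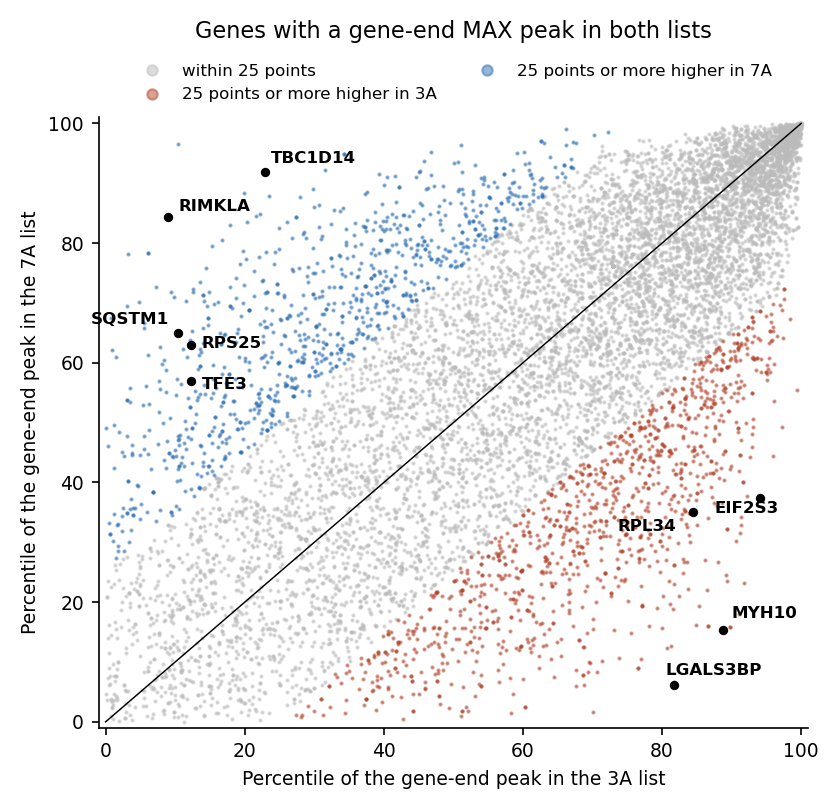
Percentile of each gene's strongest gene-end MAX peak in the 3A list (horizontal axis) and in the 7A list (vertical axis) for the 10711 genes with one in both; the line marks equal percentiles. Coloured points differ by 25 points or more (1191 higher in 3A, 930 higher in 7A), and points close up on the line towards the strongest peaks.

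Among genes whose strongest gene-end peaks in the lists were partners, the largest shift towards 3A was that of LGALS3BP, a secreted glycoprotein that binds galectins. Its peak (chr17:78979739-78980270) had a fold enrichment of 19.7 in 3A and 5.16 in 7A, percentiles 81.7 and 6.11. NEK4, a NIMA-related kinase, had 19.7 and 5.27, a shift of -74.9. A peak shared by VKORC1, the vitamin K epoxide reductase that warfarin inhibits, and LOC124903680 had 25.7 and 6.54 (shift -73.9). MYH10, a non-muscle myosin heavy chain, had 24.7 and 6.48, and MAP3K10, a mixed-lineage kinase, 27.3 and 6.81. A peak shared by C19orf53 and MRI1, an enzyme of methionine salvage, had 22.8 and 6.56. KHDC4, a splicing cofactor, had 28.6 and 7.44, and EPC1, a subunit of the NuA4/TIP60 acetyltransferase complex, 19.5 and 6.15. These genes kept shifts between -74.0 and -67.0 with lists of equal length and between -50.2 and -35.6 when ranked by −log10 q. With gene ends at 2500 bp the NEK4 shift was -7.78.

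Towards 7A the largest shift of such a gene was that of RIMKLA, a synthase of the neuropeptide N-acetylaspartylglutamate. Its peak (chr1:42380520-42381228) had 5.63 in 3A and 21.6 in 7A, percentiles 8.93 and 84.4. BRD3, a bromodomain protein that reads acetylated histones, had 4.64 and 18.2 (shift 74.9). A peak shared by ZNF559 and ZNF559-ZNF177 had 5.20 and 18.4, and TBC1D14, a regulator of autophagy, 7.39 and 29.0. SF1, the splicing factor of the branch point, had 7.05 and 24.8, REPS1, an endocytosis gene, 3.81 and 14.7, and RBM24, an RNA-binding protein of muscle, 4.60 and 15.3. CYS1, a cilium gene, had 5.39 and 16.2, and FA2H, a fatty acid hydroxylase, 4.96 and 15.5. BRD3, ZNF559, ZNF559-ZNF177, REPS1, RBM24 and FA2H had no 3A gene-end peak at equal length. The others then had shifts of at least 69.6. Ranked by −log10 q all these genes stayed above 28 points. The shift of UBE2M, a NEDD8-conjugating enzyme, was larger still (86.1), but compares peaks of different positions: 5.83 in 3A at chr19:58554845-58555239 and 40.6 in 7A at chr19:58558576-58559897, each with a partner in the other list. UBE2M was singled out after its value was seen.

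Some of the strongest sites kept their rank, and others did not. Of the strongest 10 peaks of each list 3 were partners of each other, and of the strongest 100, 51. The strongest 3A peak, at the glycolytic gene PGK1, had a fold enrichment of 311.3 in 3A and 40.2 in 7A, where its percentile was 96.4. RPL38, of the large ribosomal subunit and like PGK1 named after its values were seen, went from 71.3 to 12.02 and from percentile 99.4 to 55.4. Ranked by −log10 q it shifted by only -12.1, below the threshold. The genes that follow were chosen for ranking high in both lists, so that their closeness is no finding. FMNL3, a formin of the actin cytoskeleton, ranked 3 in 3A and 4 in 7A, with fold enrichments of 207.6 and 202.4. ZFYVE27, which encodes protrudin, ranked 7 and 2 (171.7 and 265.4), and UTP11, a ribosome assembly factor, 2 and 7 (269.9 and 186.1). DHDDS, a subunit of the enzyme that makes dolichol chains, ranked 5 and 18 (193.2 and 152.4). Genes with a mean percentile above 90 numbered 1611, and none shifted by 25 points, since a mean above 90 leaves no room for it. At mean percentiles of 40 to 50, 20.5% of 1043 genes ranked higher in 3A by 25 points or more and 19.3% higher in 7A.

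The gene groups below are described by the shifts of members with a gene-end peak in both lists, beside the median of -1.10 and the shares of 11.1% and 8.68% over all genes. A bracket after a group's median gives the median with lists of equal length and then that by −log10 q, which for all genes were 0.08 and -0.92. Of 69 named genes past 25 points, 26 fell below when ranked by −log10 q, and they are listed at the end of each group. Proteins of the ribosome ranked higher in 3A more often than lower. Of 43 genes of the large subunit, 39 had a negative shift (90.7%, against 54.2% of all genes) and the median was -10.01 (-9.81 and -9.59). In the small subunit 25 of 28 were negative, with a median of -6.74 (-5.50 and -8.46). Median percentiles went from 94.5 in 3A to 82.7 in 7A for the large subunit and from 93.3 to 80.8 for the small. For comparison, 56.1% of all genes with a mean percentile of 80 to 90 had a negative shift, with a median of -1.71.

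Most of these shifts were moderate. In the large subunit 6 genes passed 25 points towards 3A and none towards 7A, in the small subunit 2 and 1. Among the 6, RPL4 (-32.1) compares peaks of different positions, chr15:66504400-66505633 in 3A and chr15:66497083-66498189 in 7A. RPL11, RPL13A and RPL38, also among the 6, shifted by -12.3, -19.3 and -12.1 by −log10 q. RPL34 had a fold enrichment of 21.3 in 3A and 8.89 in 7A (shift -49.3), and RPL6 17.4 and 8.35 (-46.0). RPL28 had a peak in 3A alone (14.6) and RPL7 in 7A alone (20.5), although RPL7 had one in both lists with gene ends at 2500 bp. In the small subunit RPS28 had 13.6 and 8.78 (-29.2), RPS27 had a peak in 3A alone (6.99), and RPS25 went against the rest with 6.10 and 13.6 (50.6). Ranked by −log10 q, RPS28 shifted by -23.1 and RPS25 by 8.03.

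Mitochondrial ribosomal proteins had a median shift of -6.68 (-3.84 and -5.04), with 46 of 69 negative, 8 past 25 points towards 3A and 2 towards 7A. MRPS5 had 16.3 in 3A and 7.38 in 7A (-51.0), and MRPL16 15.7 and 7.37 (-49.0). The factors that assemble ribosomes moved less: over 52 genes of ribosome assembly and RNA polymerase I the median was -1.55 (-1.39 and -1.13), with 1 and 2 past the threshold. UBTF, which binds ribosomal DNA promoters, had 14.99 and 7.39 (-46.5), and TAF1C, a subunit of the selectivity factor of RNA polymerase I, had 9.55 and 19.4 (40.8). RNA polymerase III and its factors had a median of -0.72 (-0.60 and -0.79), with BRF2 at 16.2 and 7.91 (-46.3) and POLR3E at 24.7 and 12.95 (-28.7). TAF1C and BRF2 fell below 25 points by −log10 q.

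Groups of translation, protein turnover and splicing also had negative medians. Translation factors had a median of -3.34 (-1.82 and -4.49), with 5 of 42 past 25 points towards 3A and 1 towards 7A. EIF2S3, a subunit of initiation factor eIF2, had 32.4 and 9.19 (-56.7), and EIF5 16.5 and 7.49 (-50.4). Aminoacyl-tRNA synthetases had a median of -3.13 (-1.65 and -6.98) over 19 genes, with 2 and 0 past the threshold, RARS1 at 11.5 and 4.84 (-48.7) and HARS1 at 25.0 and 12.1 (-33.4). The proteasome had a median of -6.46 (-5.37 and -6.22), with 4 and 1 of 31 past it, and PSMC2 had a peak in 3A alone (11.1). PSMD1, of the regulatory particle, had 13.6 and 6.18 (-50.4), and PSME2, of the PA28 activator, 15.3 and 8.67 (-36.8), which became -10.8 with gene ends at 2500 bp. Splicing factors had a median of -4.13 (-3.05 and -2.79), with 1 and 2 of 35 past it, HNRNPM at 7.84 and 14.8 (41.2) and SRSF4 at 23.4 and 11.6 (-33.9). HNRNPU had a peak in 7A alone (9.68), and in both lists with gene ends at 2500 bp. EIF5, HARS1, PSME2 and SRSF4 fell below 25 points by −log10 q.

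**Figure D4:**
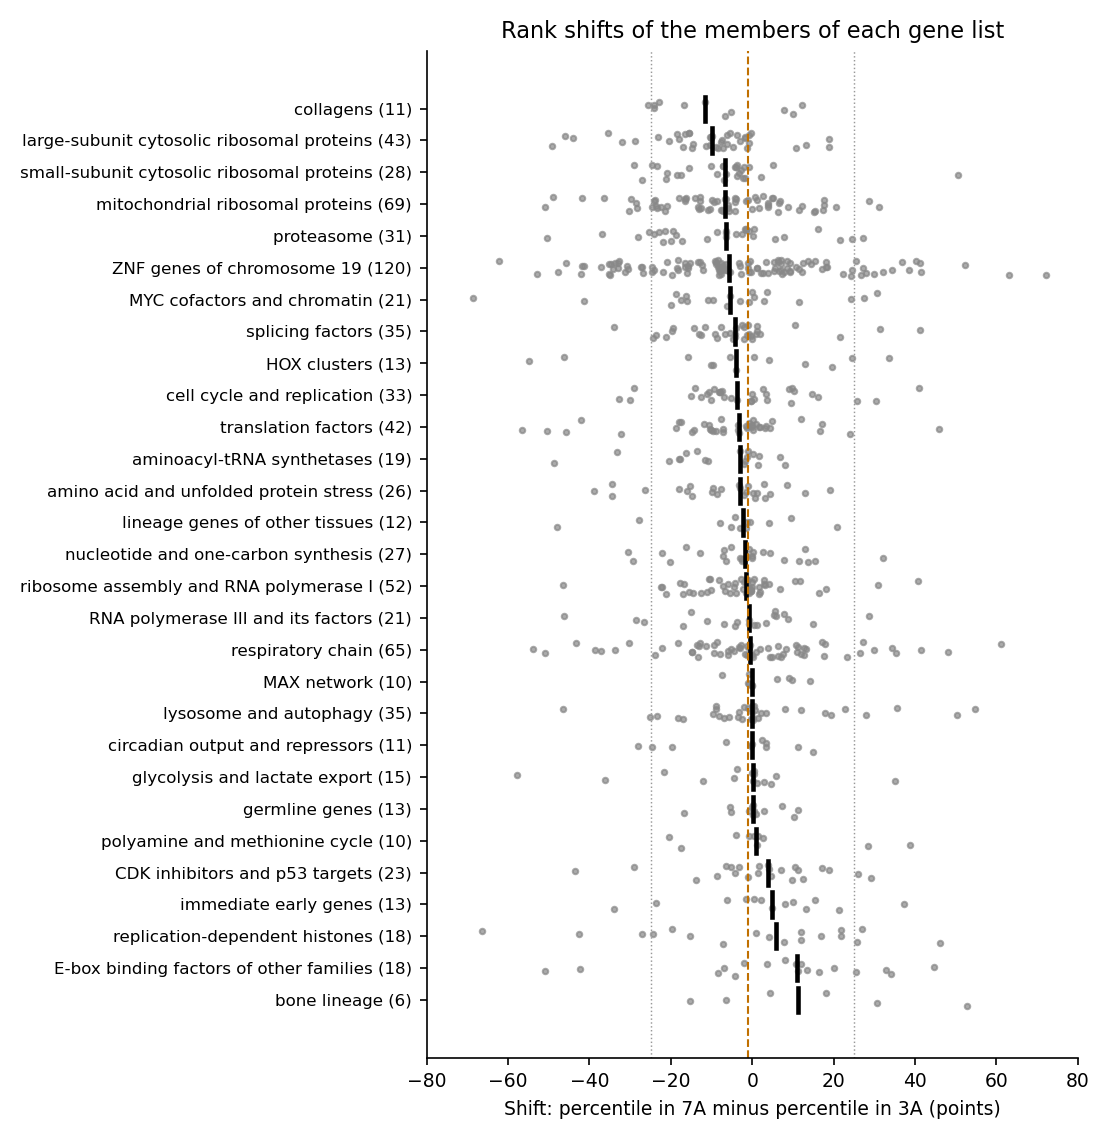
Shift of each member with a gene-end peak in both lists (horizontal axis, 7A percentile minus 3A percentile, in points) by gene list, with the number of such members in brackets. Black bars are list medians, the dashed line is the median of all genes (-1.10) and dotted lines mark 25 points; the large ribosomal subunit has its median at -10.01, and 39 of its 43 members lie below 0.

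Metabolic groups stood near the median of all genes. Nucleotide and one-carbon synthesis had a median of -1.68 (-1.56 and -1.06), with 2 of 27 past the threshold towards 3A and 1 towards 7A. SHMT1, a serine hydroxymethyltransferase, had 10.01 in 3A and 17.05 in 7A (32.1), PFAS, of purine synthesis, 18.5 and 10.8 (-30.7, or 2.59 with gene ends at 2500 bp), and CTPS2, a CTP synthase, a peak in 7A alone (9.02). Glycolysis and lactate export had a median of 0.27 (0.31 and -1.35), with 2 and 1 of 15 past it: PFKM, a phosphofructokinase, had 12.9 and 4.42 (-57.9), and ALDOC, an aldolase, 13.6 and 7.91 (-36.2). SLC16A3, a lactate exporter, had a peak in 7A alone (9.61). The polyamine and methionine cycle had a median of 0.83 (0.49 and 0.25), with 0 and 2 of 10 past it. SMS, spermine synthase, had 8.77 and 16.2 (38.9), with no 3A peak left at equal length, and APIP, of methionine salvage, 8.77 and 13.4 (28.4). AMD1, which makes the aminopropyl donor for polyamines, had a peak in 7A alone (19.9), and in both lists at 2500 bp. SHMT1, PFAS, ALDOC and APIP fell below 25 points by −log10 q.

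The respiratory chain had a median of -0.45 (2.96 and -3.45, so its direction turned at equal length), with 7 of 65 past the threshold towards 3A and 8 towards 7A. NDUFB7 of complex I had 5.11 and 14.5 (61.1), NDUFS8 of the same complex 21.1 and 8.26 (-53.9), and COX7B a peak in 3A alone (5.00) that was not in the list at equal length. Lysosome and autophagy genes had a median of -0.04 (0.38 and 0.01), with 2 and 4 of 35 past it. SQSTM1, the autophagy receptor p62, had 5.83 and 14.1 (54.7), and ULK1, the kinase that starts autophagy, 5.14 and 12.2 (50.3). With gene ends at 2500 bp these became -6.97 and 2.80. Genes of amino acid and unfolded protein stress had a median of -3.06 (-2.10 and -2.75), with 4 and 0 of 26 past it: SLC7A11, the cystine importer, had 15.5 and 8.51 (-38.8), and DNAJB11, a chaperone of the endoplasmic reticulum, 12.8 and 7.70 (-34.5). SLC7A11 and DNAJB11 fell below 25 points by −log10 q.

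Within the MAX network no gene with a peak in both lists passed 25 points, 0 of 10. The median was -0.08 (0.78 and -0.13). MLXIP, the glucose-responsive partner of MLX, had fold enrichments of 98.0 in 3A and 65.4 in 7A. The repressors MGA, with 75.2 and 60.9, and MXD3, with 52.4 and 47.0, ranked equally close, and these 3 genes had shifts of -0.80, -0.71 and -0.92. The repressor genes MNT, with 31.8 and 32.3, and MXD1, with 22.3 and 22.6, moved least (-0.05 and -0.12, or 0.48 and 1.07 at equal length). MXD4 had 37.0 and 24.8 (-7.45), MYCN 20.97 and 26.4 (6.18), MAX itself 17.03 and 22.3 (9.70), MLX 10.6 and 12.3 (9.12) and MYCL 6.23 and 7.95 (14.3, or -1.02 with gene ends at 2500 bp). MYC had its gene-end peak in 3A alone, as given above. MXI1 and MLXIPL had none in either list.

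MYC cofactors and chromatin genes had a median of -5.51 (-2.80 and -4.14), with 2 and 2 of 21 past the threshold. EPC1 is given above, DMAP1, another NuA4/TIP60 subunit, had 14.2 and 7.63 (-41.3), and WDR5, a cofactor that binds MYC directly, had a peak in 3A alone (16.3), but in both lists at 2500 bp. Factors of other families that bind E-boxes had a median of 10.9 towards 7A (14.4 and 2.25), with 12 of 18 positive, 2 past the threshold towards 3A and 4 towards 7A. The partners CLOCK and BMAL1 of the circadian clock both ranked higher in 3A: CLOCK had 23.5 and 9.08 (-50.8), and BMAL1 9.95 and 3.47 (-42.2), a gene added here after its value was seen. TFE3, a regulator of lysosome genes, had 6.10 and 12.3 (44.7). Circadian output genes had a median of 0.04 (0.10 and 0.44), with 1 and 0 of 11 past it, and none at equal length. CSNK1D, a clock kinase, had 11.3 and 7.54 (-28.1, or -24.1 at equal length), HLF 15.004 and 10.2 (-24.6), and NR1D1, a circadian repressor, had a peak in 3A alone (14.5), and in both lists at 2500 bp. DMAP1, TFE3 and CSNK1D fell below 25 points by −log10 q.

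Genes of division and of the response to signals had mixed shifts. Cell cycle and replication had a median of -3.79 (-1.95 and -1.14), with 3 and 3 of 33 past the threshold, among them E2F3 at 7.53 and 14.1 (41.1, or 14.9 with gene ends at 2500 bp) and BUB1, a mitotic checkpoint kinase, at 17.3 and 10.1 (-32.6). CDK inhibitors and p53 targets had a median of 3.84 (6.11 and -0.18, so its direction turned by −log10 q), with 2 and 2 of 23 past it. TP53I3 had 12.2 and 6.27 (-43.6, or -7.82 at 2500 bp), PLK2, a polo-like kinase, 10.9 and 18.5 (29.2), and GADD45A, a DNA damage gene, a peak in 7A alone (16.5), and in both lists at 2500 bp. Immediate early genes, which respond quickly to growth signals, had a median of 4.92 (9.06 and 7.36), with 1 and 1 of 13 past it. IER5 had 7.504 and 13.1 (37.2, or 20.7 at 2500 bp) and MCL1, an anti-apoptotic gene, 10.8 and 6.42 (-34.1). FOSL2 (16.1) and IER2 (14.4) had a peak in 3A alone, and in both lists at 2500 bp. E2F3, BUB1, PLK2, IER5 and MCL1 fell below 25 points by −log10 q.

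Most lineage genes had no gene-end peak in either list, and fewer had one in both than the 53.6% of all genes. Of 20 bone lineage genes 6 had a gene-end peak in both lists, with a median shift of 11.3 (22.7 and 9.59), percentiles with a median of 11.6 in 3A and 42.6 in 7A, and 2 past the threshold towards 7A: BMP2, a bone morphogenetic protein, had 6.12 and 14.2 (52.8), and TNFRSF11B, osteoprotegerin, 4.80 and 8.84 (30.7). Of 50 lineage genes of other tissues 12 had peaks in both, with a median of -2.35 (-0.79 and -0.66) and 2 past it towards 3A: SFTPC, a surfactant protein, had 16.3 and 7.74 (-48.0), and DES, desmin, 9.40 and 5.88 (-27.8, or -22.6 at equal length). In 3A alone were 5 of the 50, against 1.89% of all genes, the strongest ACTC1, cardiac actin (9.71), MYOD1, a muscle regulator (8.77), SYT1, of synaptic vesicles (8.31), and SST, somatostatin (8.13). In 7A alone was 1, against 1.12% of all genes: RBFOX3, a neuronal splicing factor (11.6). Collagens had a median of -11.6 (-6.64 and -7.37) over 11 genes, some sharing a peak, with COL9A2 at 10.6 and 7.28 (-25.7, or -21.2 at equal length and 7.46 at 2500 bp) and COL4A4 at 8.20 and 4.99 (-24.2). COL16A1 had a peak in 7A alone (16.4), as did COL4A5 and COL4A6, which share it (8.65), and COL6A1 in 3A alone (5.12). COL16A1 had one in both lists at 2500 bp. At equal length SYT1 and COL6A1 had none in either list. BMP2 and COL9A2 fell below 25 points by −log10 q.

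HOX genes had a median of -4.07 (0.75 and 0.03, so the direction turned under both), with 2 of 13 past the threshold towards 3A and 1 towards 7A, led by HOXB6 at 16.8 and 7.08 (-54.9) and HOXB9 at 13.4 and 6.63 (-46.2). HOXA7 had a peak in 3A alone (10.9), and HOXA9 in 7A alone (5.51), though in both lists at 2500 bp. Replication-dependent histone genes, which lie close together and share peaks, had a median of 5.96 (7.78 and 0.97), with 3 and 3 of 18 past it: H4C11 had 17.5 and 5.82 (-66.5) and H4C8 7.41 and 15.2 (46.2). H2AC4 (11.6), H2AC20 (9.63) and H2AC12 (9.61) had a peak in 3A alone, and H2BC17 (7.04) in 7A alone. At 2500 bp H2AC20 and H2AC12 had one in both lists. HOXB9 and H4C8 fell below 25 points by −log10 q. Germline genes had a median of 0.27 (0.59 and 0.16), none of 13 past the threshold, with SYCE3, of the synaptonemal complex, at 8.70 and 6.63 (-16.7) and DMC1, a meiotic recombinase, at 8.61 and 10.1 (11.2). Median percentiles of the germline group were 92.2 in 3A and 96.5 in 7A, which leave little room for 25 points. HORMAD1 (8.56) had a peak in 3A alone and TDRD9 in 7A alone.

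Zinc-finger genes of chromosome 19, a group examined after values were seen, changed rank in both directions. Of 240 genes 120 had a peak in both lists, against 53.6% of all genes. Of these 120, 23 were past 25 points towards 3A and 15 towards 7A, with a median of -5.68 (-2.85 and -1.70). ZNF559 is given above. ZNF283 had 7.10 and 21.1 (63.2, or 24.4 by −log10 q), and ZNF135 18.0 and 6.56 (-62.2). A gene-end peak in 3A alone was found at 12 of the 240, the strongest at ZNF700, ZNF793 (12.9), ZNF17 (12.6) and ZNF296 (12.5), against 1.89% of all genes. In 7A alone it was found at 1, ZNF20 (9.56). With lists of equal length 108 of the 120 kept a peak in both lists. The others then had it in 7A alone, because only the 3A list was shortened, so this imbalance depends on list length.

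The last comparison asked which E-box letters the promoter windows held. The RefSeq table gave 22132 windows of 300 bases for 15812 of the 19974 genes. CACGTG, which reads the same on both strands, was in 8.34% of all windows and CACGCG on either strand in 14.2%. Windows with a summit of both lists held CACGTG in 15.7% (14.8 to 16.7, n = 5919) and CACGCG in 24.3% (23.2 to 25.4). Windows with a specific summit held them less: CACGTG in 12 of 170 for 3A, or 7.06% (3.70 to 12.01), and in 6 of 97 for 7A, or 6.19% (2.30 to 12.98). CACGCG was in 9.41% (5.48 to 14.8) and 12.4% (6.56 to 20.6). TGANTCA, the letters bound by AP-1, was in 6.15% of all windows, 4.12% of the 3A-specific and 9.28% of the 7A-specific. GGGCGG on either strand, a GC box, was in 56.3%, 66.5% and 68.0%. A window may hold several motifs, and matches of different motifs may share bases.

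In both lists the summits lay close to CACGTG. In windows with that motif and a summit of each list, the distance was a median of 16.5 bp in 3A and 15.5 bp in 7A, and 59.0% and 60.3% of summits were within 25 bp. For CACGCG the medians were 29.5 and 28.5 bp, for GGGCGG 35.5 and 36.5 bp and for TGANTCA 80.5 and 82.5 bp. The medians of the lists differed by at most 2 bp for each motif.

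Here windows were classed by the strongest peak of each list with its summit inside, where these were partners. Windows ranked 25 points or more higher in 3A held CACGTG in 7.71% (5.86 to 9.92, n = 713), those higher in 7A in 13.04% (10.1 to 16.5, n = 460) and those within 25 points in 17.2% (16.1 to 18.3, n = 4746). CACGCG was in 14.7% (12.2 to 17.5), 21.7% (18.1 to 25.8) and 25.9% (24.7 to 27.2). The strongest sites held CACGTG most often, 29.0% (27.1 to 30.9) of windows with a mean percentile above 75 against 3.28% (1.85 to 5.36) at or below 25. Between 50 and 75 the shares were 9.43% (6.58 to 12.99, n = 350) for windows higher in 3A, 15.8% (11.2 to 21.4, n = 215) for those higher in 7A and 10.2% (8.69 to 11.9, n = 1398) for the rest. Between 25 and 50 they lay closer, at 6.14% (3.68 to 9.54, n = 293), 8.17% (4.83 to 12.8, n = 208) and 5.45% (4.02 to 7.20, n = 844). Within each range the intervals overlap. The median GC content of the windows between 50 and 75 was 65.2%, 70.3% and 67.0%. The part of GC content in these shares was not tested.

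**Figure D5:**
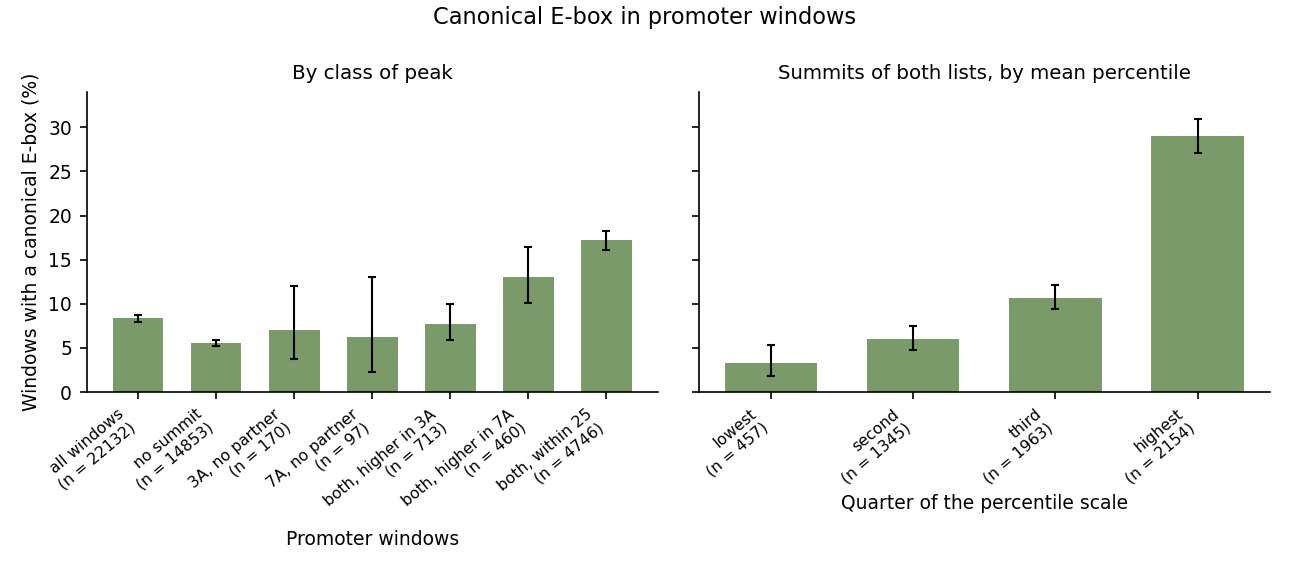
Share of promoter windows (percent, vertical axis) that hold the canonical E-box, by class of peak (left) and, for windows with summits of both lists, by mean percentile of the peaks (right), with 95% exact binomial intervals and the number of windows in brackets. The share is 7.71% where 3A ranks higher, 13.04% where 7A ranks higher, and rises to 29.0% at the strongest sites.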

How the data were processed

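MAX was profiled by ChIP-Rx, chromatin immunoprecipitation and sequencing with a reference genome added. Per the submitters' processing notes the tools were MACS2, cutadapt, Picard, Bowtie2 and SAMtools, with mm10, hg38 and hg19 listed as builds and no version or role for any; which control the peaks were called against and how mouse reads were used are not given in the sources used here. Titles and the antibody field give MAX as the target and were followed, although the protocol describes anti-FLAG. The authors deposited 1 narrowPeak list per MYC form with no header, holding the peak caller's fold enrichment (a linear ratio) and the −log10 of q per peak, which are the authors' own values. Coordinates were read as hg38 because contig names belong to that build, and are counted from 1.

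A 3A and a 7A peak were partners where they shared 1 bp or more. Percentiles are ranks of fold enrichment within a list, ties averaged. Genes and promoter windows are from RefSeq (GRCh38.p14), on chromosomes 1 to 22 and X. Shares have exact Clopper-Pearson 95% intervals. With 1 list per mutant no test between samples was possible. Gene lists held 994 genes in 28 lists, of which 1 was not matched, plus 240 zinc-finger genes of chromosome 19. Members, lists and thresholds were chosen with earlier results of these data known. Named are the 8 strongest specific gene-end peaks per list, the 3 strongest elsewhere, the 10 largest shifts per direction, and per gene list the 2 largest shifts and up to 4 members with a peak in 1 list, and the whole MAX network. The zinc-finger list, the strongest shared sites, neighbouring specific peaks and details of the MYC and ZCCHC7 loci were added after values were seen. The overlap and rank steps were tested on simulated lists. The work used SciPy 1.17.1, NumPy 2.4.6 and pandas 2.3.3 under Python 3.11.15, and matplotlib 3.10.9 for figures.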

Additional observations from a re-analysis of the deposited data

How the results depend on the processing

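With an overlap of 50% of both peaks the partnered share was 83.3% in 3A and 90.4% in 7A, with summits within 100 bp 79.2% and 85.9%, and with lists of equal length 90.2% and 89.4%. A −log10 q of at least 10 left both shares within their intervals, but it removed few peaks from either list and is a weak check. Joining peaks within 100 bp joined none in either list, so the shares could not change and this setting is no check. The gene-end share of specific peaks was 7.90% in 3A and 11.1% in 7A with a window of 500 bp, 18.6% and 20.6% with 2500 bp, and 21.8% and 27.6% with the overlap of 50%. With lists of equal length it was 20.1% in 7A. Ranking by −log10 q in place of fold enrichment lowered the paired sites past 25 points to 1137 higher in 3A and 602 higher in 7A, and the genes to 323 and 245. The cause of that drop was not tested. Genes with a gene-end peak in 7A alone numbered 347 with a window of 500 bp and 505 with lists of equal length. Of 83 named genes with a shift, 6 changed sign under 1 setting: with 2500 bp PFAS (2.59), MYCL (-1.02), SQSTM1 (-6.97) and COL9A2 (7.46), and with lists of equal length MXD1 (1.07) and MNT (0.48). Ranking by −log10 q took 26 of the 69 called ones below 25 points and reversed none. Lists of equal length did so for CSNK1D (-24.1), COL9A2 (-21.2) and DES (-22.6), and gene ends at 2500 bp for NEK4 (-7.78), E2F3 (14.9), TP53I3 (-7.82), IER5 (20.7), ULK1 (2.80) and PSME2 (-10.8). No paired analysis was possible because the authors' lists pool the replicates, and for the same reason no replicate could be left out. Library depth is unknown here.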
